A study of Homo sapiens with 6 samples.

Results

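Antisense-named lncRNA features are genes of the deposited count table that are typed as long non-coding RNA (lncRNA) and whose symbol ends in -AS and a number, a suffix given to a transcript named for a gene on the other DNA strand. The rule used names and types only and no measured value, and it picked 958 of 23384 genes, or 958 of 6003 lncRNAs. For 885 of the 958 the table also had a gene with the same stem (854 genes, since 1 stem can carry several features), and for 73 it had none. The stem gene was protein coding for 880 features, and 1 feature, KCNJ6-AS1, lay on the same strand as its stem gene. The features were measured by RNA-seq in 6 libraries of the cell line CAL27, which was established from a human squamous carcinoma of the tongue. The control group was 3 libraries of cells that received an empty vector, and the other group was 3 libraries of cells that received a plasmid labelled as overexpressing TNFAIP2, a TNF-induced gene. All 6 libraries come from this 1 line with no other treatment named in the labels. Nothing in the labels tells separate cultures from repeat libraries of 1 culture, and the spread behind each p-value may therefore be technical.

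Antisense lncRNAs are transcribed across or beside a gene from the other strand. They can start near the start of the gene, run into its end, or lie wholly inside it. Described members act on the neighbouring promoter, pair with the sense transcript or bind proteins elsewhere, and many others have no known role. A read from an exon that both strands share can be given to the right gene only if the strand of the read is kept and read correctly. The library kit was stranded, while no source used here gives the strand setting of the counting.

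The sequences below show what such a shared exon looks like in members with high counts, beside SLC1A2-AS1, the named member with the highest log2 fold change, which has no shared exon. The first 3 are stretches of an exon of the feature, and each was chosen to hold 1 whole coding exon of the gene on the other strand. Capitals mark the bases opposite that coding exon, and lower case the 20 bases on each side. The stretch of PRMT5-AS1 is chr14:22926682-22926834, plus strand, with 113 bases opposite PRMT5. That of GAS6-AS1 is chr13:113839708-113839870, plus strand, with 123 bases opposite GAS6. MCM3AP-AS1 is shown at chr21:46242782-46242951, plus strand, with 130 bases opposite MCM3AP. For SLC1A2-AS1 the whole first exon of 103 bases is printed, chr11:35281813-35281915, plus strand, all in lower case because it lies opposite an intron of SLC1A2. All are from GENCODE 29 transcripts on GRCh38.
PRMT5-AS1: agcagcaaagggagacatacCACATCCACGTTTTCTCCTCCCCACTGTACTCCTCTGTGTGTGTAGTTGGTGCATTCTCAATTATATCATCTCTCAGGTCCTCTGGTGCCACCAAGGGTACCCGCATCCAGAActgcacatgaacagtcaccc
GAS6-AS1: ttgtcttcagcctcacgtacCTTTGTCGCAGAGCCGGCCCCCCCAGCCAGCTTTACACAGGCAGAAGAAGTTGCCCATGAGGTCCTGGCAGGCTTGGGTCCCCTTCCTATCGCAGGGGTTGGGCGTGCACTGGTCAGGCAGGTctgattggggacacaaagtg
MCM3AP-AS1: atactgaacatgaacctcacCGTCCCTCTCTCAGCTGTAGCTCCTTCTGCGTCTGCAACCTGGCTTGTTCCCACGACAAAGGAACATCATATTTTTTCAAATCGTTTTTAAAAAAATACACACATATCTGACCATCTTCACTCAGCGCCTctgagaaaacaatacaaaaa
SLC1A2-AS1: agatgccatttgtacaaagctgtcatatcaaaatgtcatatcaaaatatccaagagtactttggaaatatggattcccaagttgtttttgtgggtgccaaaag

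Read on the strand of the gene, the capitals of the first 3 sequences are preceded by AG and followed by GT, the bases that border introns, which was part of how they were chosen. The reverse complement of the capitals was found in 8 coding transcripts of PRMT5, 1 of GAS6 and 2 of MCM3AP, and that of the SLC1A2-AS1 exon in 0 transcripts of SLC1A2. A read that falls within such capitals has the same bases whether it came from the feature or, reversed, from the gene.

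Library totals ran from 3092261 to 3527161 counts. All 10 squamous epithelial markers looked for were present, with summed counts of 3442 to 6169 per library. KRT5 held 1555 to 2503 of these and KRT14 38 to 79. For other cell types, 2 of 6 fibroblast, 3 of 5 leukocyte and 1 of 4 endothelial markers were present. Their sums were 3 to 18, 12 to 21 and 15 to 41, in that order. TNFAIP2 held 194, 112 and 162 counts in the controls and 194, 152 and 142 in the libraries labelled as overexpressing it. The log2 fold change was -0.21 with an adjusted p of 0.881 (edgeR). The labelled overexpression was thus not seen in these counts, and the group is called TNFAIP2-labelled here. With the strand setting unknown, counts under the name of TNFAIP2 or of a marker do not show how much the gene was expressed. A strand measure was taken on genes outside the 958. It used 347 features with at least 60 counts over the 6 libraries and at least 90% of their exonic bases opposite exons of coding genes. Each was set against the coding gene opposite it with the largest overlap, and a gene could enter more than once. The own-strand ratio, the median over the 347 of the gene's own count divided by the count of that feature, was 0.101, 0.0994 and 0.181 in the controls and 0.199, 0.138 and 0.195 in the TNFAIP2-labelled libraries. At the median ratio of every library the gene thus held fewer counts than the feature on the other strand. The minimum of 60 counts held for the feature and not for the gene, which by itself favours a low ratio.

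The antisense-named features together held 7.99%, 7.72% and 6.72% of all counts in control replicates 1 to 3 and 6.52%, 7.28% and 6.77% in TNFAIP2-labelled replicates 1 to 3. The groups overlapped, with means of 7.48% ± 0.669 and 6.86% ± 0.384 (SD, n = 3 libraries each). Their same-stem genes held less, 2.43% to 2.88% in the controls and 2.68% to 3.04% in the other libraries. The counts were concentrated on few members. The 12 members with the highest mean CPM (the share of the TMM-scaled library total) held 43.4% of all member counts. A mean of at least 1000 counts per library was reached by 44 members and of at least 100 by 250, while 177 had a mean below 1 count, 379 were at 0 in at least 1 library, and the median member had 10.8 counts.

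**Figure D1:**
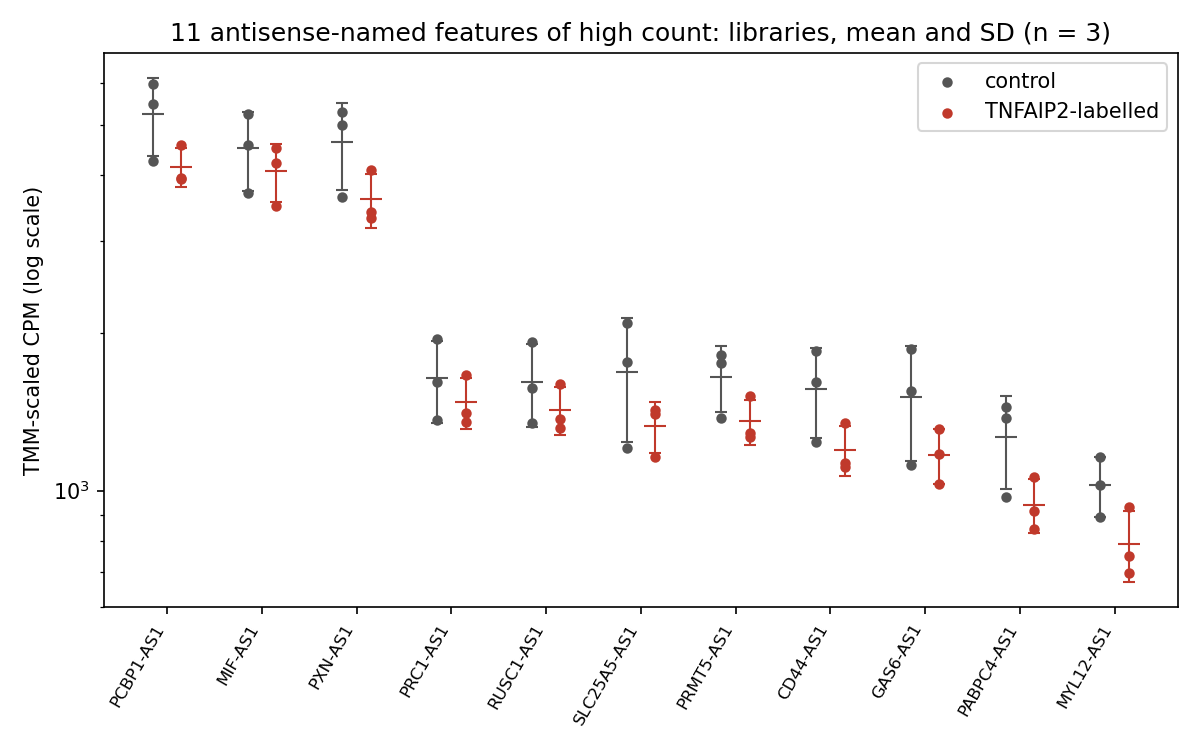
Normalised counts (CPM, log scale) of 11 of the 12 antisense-named features with the highest mean CPM, with points for libraries and bars for mean and SD (n = 3 per group). Control replicate 3 is the lowest control for 11 of 11 features drawn, and the groups overlap for each of them.

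PCBP1-AS1, opposite the gene of a poly(C)-binding protein, had 16565, 16982 and 14440 counts in the controls and 15057, 15678 and 14858 in the TNFAIP2-labelled libraries, against 296 to 495 counts of PCBP1. MIF-AS1, opposite the cytokine gene MIF, had 12657, 16231 and 12544 against 13377, 15464 and 15843. Both were above their gene in every library, and MIF held 44 to 121 counts. PXN-AS1, named for the focal adhesion protein paxillin, averaged 13640 counts and PXN 643. Others of this kind averaged 3019 to 5215 counts. They were PRC1-AS1 (a spindle midzone protein gene), RUSC1-AS1, PRMT5-AS1 (an arginine methyltransferase gene), SLC25A5-AS1 (an ADP/ATP carrier gene), CD44-AS1 (the hyaluronan receptor gene), GAS6-AS1 (a ligand of the AXL receptor family), PABPC4-AS1 (a poly(A)-binding protein gene) and MYL12-AS1, which has no gene of its exact stem in the table. IER3-AS1, next in CPM, had a slightly higher mean count than MYL12-AS1, and its lowest control was replicate 1.

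Since the strand setting is unknown and the own-strand ratio was below 1 in every library, counts under the name of a feature cannot be told apart from reads of the gene on the other strand. The levels, shares and ratios of feature to gene here are therefore those of the table as deposited, and their direction depends on the strand that was counted. Between 2 genes a level is comparable only per length, so the mean count over 6 libraries was divided by the exonic length in kilobases. Among the 734 pairs with at least 60 counts over the 6 libraries, 465 had more counts per kilobase on the antisense-named feature and 269 on the same-stem gene. The feature was higher in all 6 libraries for 393 pairs and the gene for 192. The median ratio of feature to gene was 3.17, and it was above 100 for 42 pairs and below 0.1 for 94. Across these pairs the 2 levels had a Spearman rho of 0.18, given as a description over pairs that share their libraries.

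**Figure D2:**
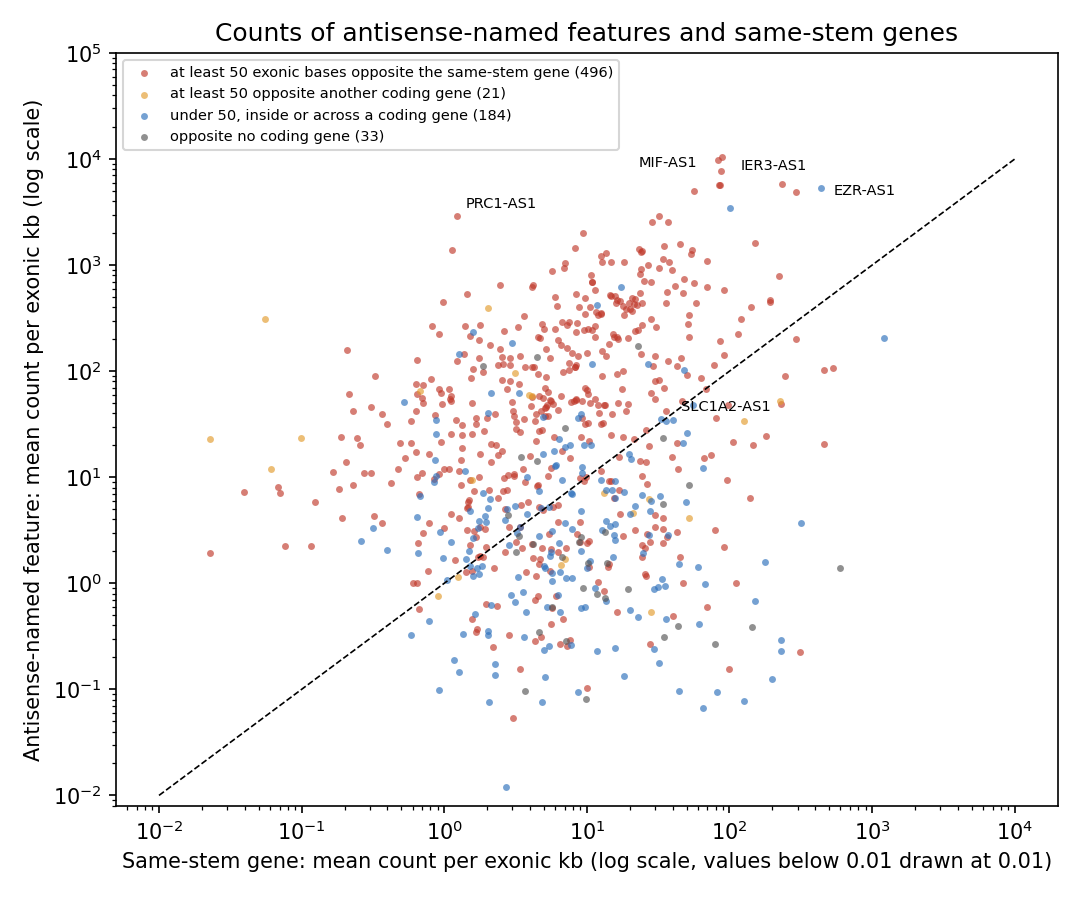
Mean count per exonic kilobase of each antisense-named feature (vertical, log scale) against its same-stem gene (horizontal, log scale) for 734 pairs with at least 60 counts, coloured by what lies opposite the exons of the feature. The dashed line marks equal levels, and 383 of the 496 red points lie above it against 65 of the 184 blue ones.

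The position of the exons went with the level. At least 50 exonic bases lay opposite exons of the same-stem gene for 582 features, and these held 92.4% of the member counts with a median of 37.4 counts. In 383 of their 496 pairs the feature had more per kilobase than the gene, with a median ratio of 8.91. Another 75 had such bases opposite a coding gene but not opposite a same-stem gene of the table, and held 4.65% of the member counts. This class takes in features whose stem gene is not in the table, for which overlap with the stem was not measured. The 254 features that cross or lie in a coding gene with fewer than 50 bases opposite its exons held 2.63%, with a median of 1.67 counts. Of their 184 pairs 65 were higher on the feature, and the median ratio was 0.438. The 47 features opposite no coding gene held 0.294%, and 7 of their 33 pairs were higher on the feature. The 50-base limit moved this little, with 406 of 536 pairs higher on the feature at a limit of 1 base and 252 of 317 at 200 bases.

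A graded measure gave the same order. Features with none of their exonic bases opposite coding-gene exons had a median of 1.38 counts per kilobase (251 features). The median was 4.54 at above 0 to 10% of bases (239), 21.1 at 10 to 25% (217), 45.6 at 25 to 50% (151), 55.2 at 50 to 90% (71) and 137 at 90 to 100% (29). The boxes overlapped between neighbouring classes.

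**Figure D3:**
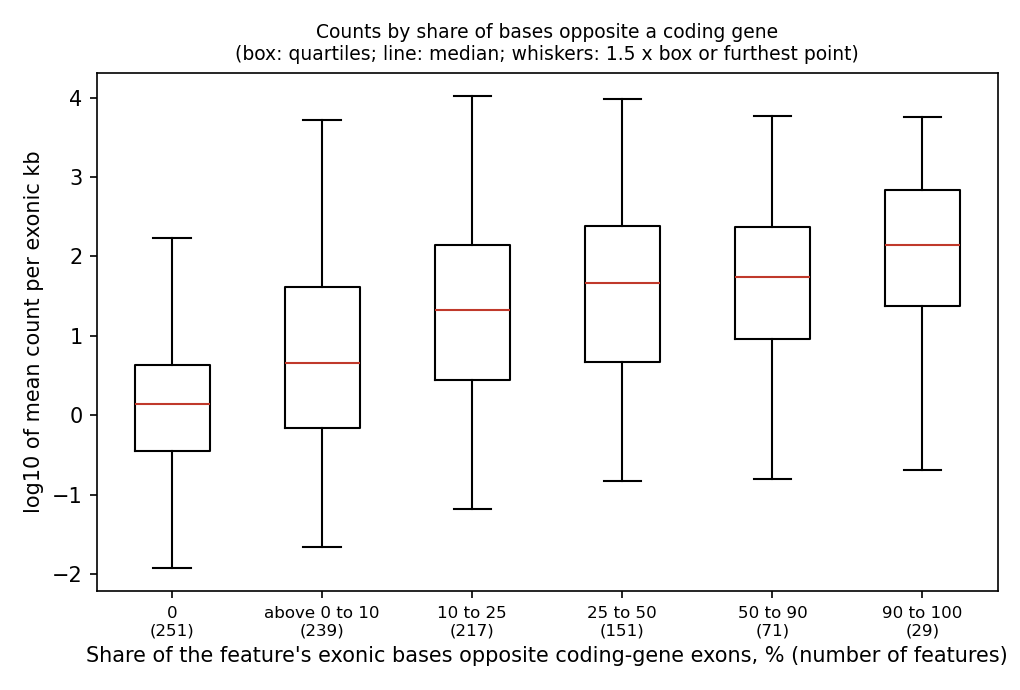
Mean count per exonic kilobase (log10) of all 958 antisense-named features by the share of their exonic bases that lies opposite exons of a coding gene, with the number of features in brackets. The median rises from 1.38 counts per kilobase at a share of 0 to 137 at 90 to 100%.

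The spans were arranged in several ways. Of the features, 323 lay inside the same-stem gene, 314 overlapped its start with their own start, 155 overlapped its end with their own end and 44 enclosed it. The feature was higher in 164 of 270, 169 of 260, 103 of 132 and 23 of 33 pairs of these 4 kinds. Starts that face away from each other within 1000 bases without overlap, the layout of a shared promoter region, were seen for 42 features. There the gene was usually the higher one, with 5 of 36 pairs higher on the feature and a median ratio of 0.226.

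The 5 highest ratios belonged to features whose same-stem gene had few counts under its own name, which, as above, does not show that the gene was little expressed. RAET1E-AS1 had 511, 383 and 261 counts in the controls and 350, 382 and 378 in the TNFAIP2-labelled libraries, and RAET1E, a ligand of the receptor NKG2D, had 1 count over all 6. PRC1-AS1 had 4455 to 6035 counts per library and PRC1 1 to 10. The other 3 were LMO7-AS1 (mean 831 counts against 16.3), SEMA3F-AS1 (468.5 against 1) and A2ML1-AS1 (10.3 against 0.167). For 4 of these 5 the largest exonic overlap was with a gene other than the stem: LRP11 for RAET1E-AS1, UCHL3 for LMO7-AS1, the splicing factor gene RBM5 for SEMA3F-AS1 and RIMKLB for A2ML1-AS1. Of the 42 pairs with a ratio above 100, 12 were of this kind.

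The stem is thus not always the gene across the strand. Among the 656 features with exons opposite a coding gene, the largest overlap was with a gene other than a same-stem gene of the table for 115. For 64 of these the table held the stem gene. For the rest it held none, so their overlap was not compared with that of the stem. RUSC1-AS1, with 4343 to 5953 counts per library, had 693 exonic bases opposite FDPS, a gene of the cholesterol pathway, and 398 opposite RUSC1. FDPS held 67, 101 and 183 counts in the controls and 241, 204 and 208 in the TNFAIP2-labelled libraries. MYL12-AS1 overlapped 175 bases of MYL12A, a myosin light chain gene. CDKN2B-AS1, known as ANRIL, had 659 to 838 counts per library, with 341 bases opposite CDKN2A and 0 opposite CDKN2B.

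At the other end, the 5 lowest ratios belonged to EPHA1-AS1, BASP1-AS1, P4HA3-AS1, RALY-AS1 and PRKAR1B-AS1, each with a mean below 1 count. Their genes averaged 507.5 counts (P4HA3) to 1024 (PRKAR1B). Fewer than 50 bases lay opposite coding exons for 4 of them and 75 bases for BASP1-AS1. Overlap did not always go with a high count. TTN-AS1 had 11381 bases opposite exons of the giant muscle protein gene TTN, and it had 1, 4 and 8 counts in the controls and 2, 10 and 8 in the others while TTN had 712 to 872. EZR-AS1, chosen after its values were seen, went the other way, with a mean of 1917 counts and 24 bases opposite exons of EZR, which had 1465 counts.

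Whether the antisense-named features differed between the groups was tested in a fit over the whole table. No member passed an adjusted p of 0.05 in edgeR, and the background was the same, with 0% of the 11851 tested genes called. Of the 958 features 500 passed the filter on low counts and were tested, and 458 were not. The lowest adjusted p among them was 0.830, shared by 169 members. At an unadjusted p below 0.05 there were 39, 3 with higher and 36 with lower values in the TNFAIP2-labelled libraries, that is 0.6% and 7.2% of the tested members beside 1.83% and 3.06% of all tested genes. DESeq2 called 3 genes and limma-voom 1 in the whole table, and 0 members.

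The members leaned to lower values as a group without any single one being called. The log2 fold change was below 0 for 414 of 500 tested members (82.8%, against 48.1% of all tested genes, of which 51.9% were above 0). Other lncRNA classes were alike: 76.5% of tested LINC-named features, 86.0% of those named as intronic, divergent or overlapping and 82.9% of the remaining lncRNAs were below 0. The median of the members was -0.28, against 0.02 over all tested genes. The middle of the distribution, from the lower to the upper quartile, ran from -0.42 to -0.09. All 44 members with at least 1000 counts were below 0, from -0.83 to -0.0046, yet the groups overlapped for every one of them. With library totals in place of TMM scaling the median of all genes moved to 0.18 and that of the members to -0.11, a gap of -0.29 in place of -0.30. Fewer cells that make an RNA and less of that RNA per cell cannot be told apart in such bulk libraries. These are fold changes of the counts as deposited, and the limit on strand given above holds for them too.

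**Figure D4:**
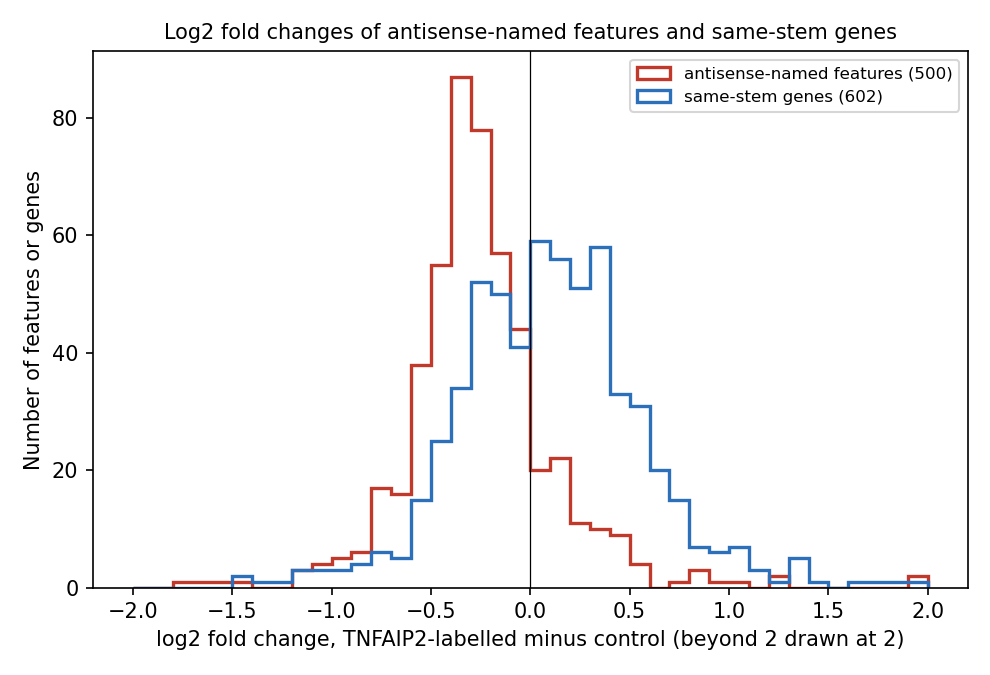
Log2 fold changes (TNFAIP2-labelled minus control) of 500 tested antisense-named features and of 602 tested same-stem genes. The features centre on a median of -0.28 and the genes on 0.08, and 0 of either passed the test. All 9057 tested protein-coding genes had a median of 0.13.

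The libraries of 1 group differed in this lean. Taking each tested member's log2 level minus its own mean over the libraries, the median member stood at 0.26, 0.27 and -0.15 in control replicates 1 to 3 and at -0.25, 0.05 and -0.18 in TNFAIP2-labelled replicates 1 to 3. Control replicate 3 thus sat with TNFAIP2-labelled replicates 1 and 3, and TNFAIP2-labelled replicate 2 lay between these and the other controls. Ordered from the lowest to the highest own-strand ratio, the 6 libraries were exactly in the order from the highest to the lowest member level. The ratio and the member level are not independent measures. The features behind the ratio also lie opposite coding exons, and its coding genes could include same-stem genes. The same-stem genes ran the other way from the members, from -0.10 in control replicate 2 to 0.14 in TNFAIP2-labelled replicate 1. So did the share of all counts on protein-coding genes, at 50.2% and 57.6% in these libraries. Squamous marker counts moved with the ratio as well, at 3442, 3673 and 5250 in the controls and 6169, 4597 and 5807 in the others, and their part in the result was not tested.

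**Figure D5:**
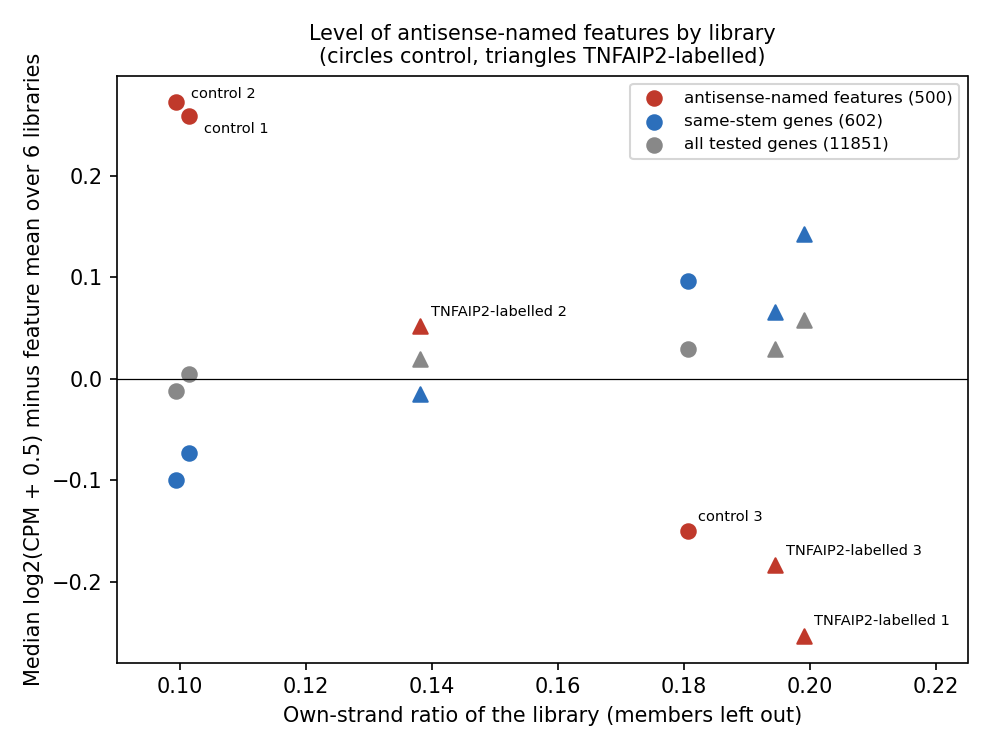
Median deviation of log2(CPM + 0.5) from each feature's mean over 6 libraries (vertical) against the own-strand ratio of the library (horizontal), for antisense-named features, same-stem genes and all tested genes. Control replicate 3 lies beside TNFAIP2-labelled replicates 1 and 3, and the members fall as the ratio rises.

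With the log2 own-strand ratio as a covariate in the edgeR fit the median member log2 fold change was -0.0023, and 50.4% of the tested members were below 0. The ratio was taken from the same 6 libraries and from features that, like most members, lie opposite coding exons. Its mean was 0.127 in the controls and 0.177 in the TNFAIP2-labelled libraries, so this fit cannot fully separate group and ratio. Control replicate 3 decided the calls: without it 53 of 523 tested members were called (10.1%, 2 higher and 51 lower), beside 7.41% of all tested genes, where the shares were 4.13% higher and 3.28% lower. Leaving out any other library left 0 members called. At the level of pairs, the median over pairs of the feature's share of the counts of both was 60%, 59.1% and 45.7% in the controls and 42.9%, 51.8% and 45.8% in the others, so the groups again overlapped through control replicate 3.

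Members with non-overlapping groups were 5 higher and 45 lower, or 1% and 9% of those tested, beside 5.54% and 4.92% of all tested genes. At a mean of 5 CPM or more there were 4 and 38. SLC1A2-AS1, named for a glial glutamate transporter gene, had the highest log2 fold change of the 4. It had 4, 8 and 18 counts in the controls and 54, 45 and 33 in the TNFAIP2-labelled libraries. Every TNFAIP2-labelled library was above every control, at 3.11 ± 1.98 against 12 ± 2.83 CPM (mean ± SD, n = 3). The log2 fold change was 1.91 ± 0.55 (SE), with an adjusted p of 0.830 in edgeR, and SLC1A2, at 726 to 1067 counts, had a log2 fold change of -0.02. In the annotation the 776 exonic bases of this feature hold 0 bases opposite SLC1A2 exons.

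ADORA2A-AS1 had 19, 17 and 14 counts in the controls and 35, 33 and 59 in the others, with no overlap, a log2 fold change of 1.07 ± 0.48 (SE) and an adjusted p of 0.830 (edgeR). Its exons lay opposite UPB1 by 385 bases and opposite the adenosine receptor gene ADORA2A, which had 1 count in all, by 285. MZF1-AS1 had 119, 111 and 102 counts in the controls against 194, 163 and 171, also without overlap, with a log2 fold change of 0.40. PPP1R26-AS1 was the only other such member, at 0.23. None of the 4 passed the test.

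TTC28-AS1 had the lowest log2 fold change of the 38, at 51, 49 and 69 counts in the controls and 30, 32 and 8 in the TNFAIP2-labelled libraries. All controls were above all others, and replicate 3 of the TNFAIP2-labelled group was the lowest. The log2 fold change was -1.50 ± 0.46 (SE) with an adjusted p of 0.830 (edgeR). DDX39B-AS1 had 37, 22 and 36 counts against 18, 13 and 22, and the RNA helicase gene DDX39B across from it 12, 15 and 17 against 57, 42 and 27. For this pair the feature was lower and the gene higher, both with no overlap in CPM, at log2 fold changes of -1.10 and 1.27. NUTM2B-AS1 (-0.98), IL20RB-AS1 (-0.89), EML2-AS1 (-0.81) and C1RL-AS1 (-0.77) followed, and none passed the test. C1RL-AS1 was at -0.36 without control replicate 1.

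In the 384 pairs with both rows tested, the feature was below 0 and the gene above 0 in 205, both were below 0 in 117, both above 0 in 36, and the feature above and the gene below 0 in 26. With 322 of the features below 0 and 241 of the genes above 0, the margins alone give 202 pairs of the first kind, close to the 205 counted. The medians were -0.27 for the features and 0.14 for the genes. CD44-AS1 had 5101, 4993 and 4200 counts in the controls and 4326, 4619 and 4169 in the others, while CD44 had 496, 629 and 1066 against 1178, 818 and 1082. Control replicate 3 again stood with the TNFAIP2-labelled libraries in both. Of the 602 tested same-stem genes 357 were above 0, 245 were below 0 and 0 were called. Their median was 0.08, beside 0.13 for all 9057 tested protein-coding genes, of which 38.0% were below 0. The same-stem genes thus did not stand above coding genes at large.

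Grouped by the symbol prefix of the stem gene, the members of 7 groups were below 0 in most cases, and 0 passed the test in any. A prefix also takes in genes of other function, such as SLC9A3R1 (a scaffold protein), PAXIP1 (a DNA damage protein), PAXBP1 and LAMTOR5 (a lysosomal signalling subunit), and the counts include them. For solute carriers 8 of 10 tested members were below 0, among them SLC25A5-AS1 (-0.34), SLCO4A1-AS1 (-0.57) and SLC7A11-AS1 (-0.13), with SLC1A2-AS1 as the exception above. Zinc finger stems had 16 of 17 below 0 and the lowest median, -0.45, with ZNF451-AS1 at -0.31 and ZNF710-AS1 at -0.51. Homeobox and patterning stems had 10 of 14 below 0, with HOXA-AS3 at -0.42 and PAX8-AS1 at -0.33. Ubiquitin and proteasome stems had 14 of 19, with PSMB8-AS1 at -0.50 and RNF217-AS1 at -0.77. Stems of the cytoskeleton, adhesion and matrix had 16 of 18, with PXN-AS1 at -0.36 and THBS1-AS1 at -0.25. Cell cycle and DNA repair stems had 10 of 12, with CENPN-AS1 at -0.31 and CDC42-AS1 at -0.40. Stems of inflammation, interferon and NF-kB signalling, in which TNFAIP2 is a known target, had 8 of 13 below 0 and a median of -0.08, with IRF1-AS1 at -0.60 and CFLAR-AS1 at 0.11. These shares stand beside 82.8% for all tested members and 48.1% for all tested genes.

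Of 29 members with a described function in other work 18 were tested, 16 of them below 0, and 0 passed. The most counted were PXN-AS1, IER3-AS1, MCM3AP-AS1 and TMPO-AS1. IER3-AS1, opposite an immediate early stress gene, had 2176, 3387 and 2903 counts in the controls and 3216, 3286 and 3343 in the others, with overlap and a log2 fold change of -0.03. AFAP1-AS1, described in several carcinomas, averaged 242 ± 34.9 and 201 ± 35.2 CPM (SD, n = 3), and OIP5-AS1, a cytoplasmic RNA also called cyrano, 198 ± 49.7 and 179 ± 12.8 CPM. Their groups overlapped. PSMA3-AS1 (0.25) and SLC16A1-AS1 (0.23) were the tested ones above 0, and they were at 0.0042 without control replicate 1 and at 0.031 without TNFAIP2-labelled replicate 3, respectively. The other 11, such as ZEB1-AS1, DSCAM-AS1 and FOXD2-AS1, averaged 0.333 to 9.17 counts per library and did not pass the filter on low counts in the edgeR fit. Among them KTN1-AS1 had 6, 3 and 5 counts in the controls and 9, 15 and 13 in the others, and its groups did not overlap. THAP9-AS1 had 8, 9 and 12 against 10, 9 and 4, lower in CPM without overlap. In the edgeR fit without that filter, which took in all 958 members, 0 were called.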

How the data were processed

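Per the labels, RNA of CAL27 cells was sequenced as 6 libraries from a stranded mRNA kit, 3 per group, and each library was placed by its title. The authors deposited whole-number read counts per gene with coordinates. Per the submitters' processing notes the tools were Trim Galore 0.6.4, HISAT2 2.2.0 and HTSeq 0.13.5 with GRCh38, while no source used here gives the annotation release or strand setting. The same-stem gene is the one whose symbol is the part before -AS. Exon positions and lengths came from GENCODE 29, matched by identifier for 958 of 958 members, of which 705 had the same start and end as in the deposited table. A base was opposite if an exon of a protein-coding gene on the other strand covered it.

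Counts were tested with edgeR 4.0.16 (R 4.3.3, default filter on low counts, TMM, robust quasi-likelihood test, Benjamini-Hochberg over all tested genes, threshold 0.05), checked on simulated data. DESeq2 1.42.0, limma-voom 3.58.1, other scalings, filters, the replicate block, the own-strand ratio as a covariate and each library left out were the alternatives. Ratios used counts plus 0.5, and levels log2(CPM + 0.5). Library totals of 3092261 to 3527161 counts limit what can be seen for members of few counts. Libraries of a group differed by more than sampling noise (chi-square per degree of freedom 5.07 to 19.4). The members and gene groups (by symbol prefix) were chosen with earlier results of these data known. Named members were the 12 of highest mean CPM, up to 6 largest rises and 6 largest falls with non-overlapping groups at 5 CPM or more, the 5 highest and 5 lowest ratios to the same-stem gene, and 29 described lncRNAs. Values of 1 of the 12 are not reported here.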

Additional observations from a re-analysis of the deposited data

How the results depend on the processing

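No member was called in any fit of all 6 libraries. The whole table had 0 genes called in the main fit, 3 with DESeq2, 1 with limma-voom and 3 without a filter on low counts. Leaving out 1 library gave 0 to 922 genes, 0 to 53 members and 0 to 37 same-stem genes called, and the highest of each came without control replicate 3. The same numbers 1 to 3 stand in both groups, but the labels do not say that a number marks a shared culture, and deviations of same-numbered libraries correlated at -0.25, 0.15 and -0.05. With the replicate block 0 members were called and their median log2 fold change was -0.27. That median ran from -0.40 to -0.19 over fits with 1 library left out, and 69.2% to 85.7% of the tested members were below 0. It moved to -0.0023, with 50.4% below 0, when the own-strand ratio was a covariate, and to -0.11, with 66.0% below 0, under library totals. Over all 958 members the share below 0 was 67.3% with DESeq2 and 67.1% in edgeR without the filter on low counts. The medians there were -0.27 and -0.25. Both groups' shares of library counts were 6.67% and 6.14% without the member of the highest count and 19.1% and 19.2% of lncRNA counts. The median share within pairs was 68.9% and 65.5% at 300 or more counts in the pair. With at least 200 bases opposite the same-stem gene, 252 pairs were higher on the feature. Among 43 named members the log2 fold change turned above 0 under library totals for CBR3-AS1 0.083, CDKN2B-AS1 0.030, IER3-AS1 0.14, MIF-AS1 0.030, NNT-AS1 0.035, OIP5-AS1 0.028, PRC1-AS1 0.022, SBF2-AS1 0.096, SEMA3F-AS1 0.046, ST7-AS1 0.11, TMPO-AS1 0.035. With the covariate it changed sign for AFAP1-AS1 0.0043, CBR3-AS1 0.23, CDKN2B-AS1 0.10, IER3-AS1 0.081, MAPKAPK5-AS1 0.089, MIF-AS1 0.11, NNT-AS1 0.011, PRC1-AS1 0.10, RAET1E-AS1 0.22, RUSC1-AS1 0.066, SBF2-AS1 0.13, SEMA3F-AS1 0.26, SLC16A1-AS1 -0.11, SLC25A5-AS1 0.028, ST7-AS1 0.15, TMPO-AS1 0.082, VPS9D1-AS1 0.017. Over fits with 1 library left out it crossed 0 for A2ML1-AS1 -0.76 to 0.024, CBR3-AS1 -0.23 to 0.023, FGD5-AS1 -0.39 to 0.072, IER3-AS1 -0.12 to 0.15, MIF-AS1 -0.27 to 0.0044, NNT-AS1 -0.28 to 0.054, OIP5-AS1 -0.30 to 0.093, PRC1-AS1 -0.28 to 0.015, RAET1E-AS1 -0.61 to 0.0098, SBF2-AS1 -0.20 to 0.095, SEMA3F-AS1 -0.34 to 0.012, ST7-AS1 -0.21 to 0.20, TMPO-AS1 -0.24 to 0.028, VPS9D1-AS1 -0.48 to 0.027. The cause of these moves was not tested. Without control replicate 3, 10 of the 43 named members passed the threshold, beside 7.41% of all tested genes. Named members were picked in part by their values in these libraries, so this count says nothing about the members at large.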

Other observations

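Other lncRNA classes were laid out in the same way. Tested features with LINC symbols were below 0 in 52 of 68 cases (median log2 fold change -0.31), those named as intronic, divergent or overlapping transcripts in 49 of 57 (-0.30) and the remaining lncRNAs in 1421 of 1715 (-0.28). Protein-coding genes were below 0 in 38.0% of 9057 cases, with a median of 0.20 where their exons lay opposite no other coding gene and -0.10 where they did. The 64 tested antisense-named features with fewer than 50 opposite bases had a median of -0.26 and 44 below 0. These classes share all 6 libraries with the antisense-named features.

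EZR-AS1, CD81-AS1 and FARSA-AS1 had the most counts of the 11 members that reached a mean of 100 with fewer than 50 bases opposite a coding exon, at means of 1917, 951.5 and 830.5 counts. THBS1-AS1 and THBS1, the gene of the matrix protein thrombospondin 1, had nearly equal means of 2597 and 2690 counts. These were chosen after their values were seen.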
